A study of Leucoraja erinaceus with 6 samples.

Results

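The K2P (tandem-pore-domain) potassium channels were followed in little skate embryos, in the dorsal root ganglia (DRG), which hold the cell bodies of somatosensory neurons with their glia, and in the spinal cord, called the cord below. Members were the rows of the raw count table whose gene identifier starts with kcnk and a digit, which gave 8 of 22087 named genes: kcnk2a, kcnk3a, kcnk5a, kcnk6, kcnk9, kcnk13a, kcnk17 and kcnk18. The family was chosen for the increase of kcnk18 in DRG, so the DRG and spinal cord levels of kcnk18 are described without a test, while its relatives were chosen by name and were tested. Both tissues came from wild-type embryos at stage 32 that had received no drug and no fin ablation. Each tissue had 3 libraries of polyadenylated RNA, and each library pooled tissue from 3 to 4 embryos. Both tissues are mixtures of neurons and glia according to the labels, so that in these bulk libraries fewer cells of a type and less RNA per cell cannot be told apart.

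K2P subunits carry background, or leak, potassium current, which holds the membrane of a resting cell near the potassium equilibrium potential and sets how easily a neuron fires. The subunits pair to form a channel, and subfamilies differ in what controls them: stretch, heat and lipids for the TREK group, extracellular pH for the TASK and TALK groups, and cytosolic calcium acting through the phosphatase calcineurin for TRESK, the product of kcnk18. In mammals TRESK is known from sensory neurons of the dorsal root and trigeminal ganglia, where it dampens excitability. These roles are known from mammals and were not measured here.

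Libraries held 24342810 to 28782887 counts in named genes. Messages of the 13 mitochondrially encoded proteins took 24.3% to 35.7% of them in DRG and 5.39% to 6.88% in the cord. Levels below are CPM (counts scaled to library size) scaled with TMM factors, which correct for such differences in composition, and 3 counts on this scale equal 0.136 to 0.176 CPM for the DRG libraries and 0.0764 to 0.0888 CPM for the cord libraries. Replacing TMM by library sizes alone shifted the median log2 fold change, DRG over cord, of all tested genes from -0.04 to -0.99. Each change below is therefore stated against the TMM scale. A change of scaling moves all genes by nearly the same amount, so values set against this median hardly differ between scalings. They do not tell which scaling is right. Most neuronal marker genes followed the tissue labels. Of 9 tested sensory neuron genes, 7 were higher in DRG and 0 lower (6 higher with pool as a block, 4 with library sizes alone). The genes eya1 and avil did not pass. The 9 genes summed to 3076 to 3510.1 CPM in DRG and to 647 to 765 CPM in the cord, with no marker at 0. Most of both sums came from sncga, at 2493 ± 171 CPM in DRG and 492 ± 55.8 CPM in the cord (SD, n = 3 each). All 11 spinal neuron genes were lower in DRG, where they summed to 4.80 to 9.08 CPM against 655 to 716 CPM in the cord, and evx1 was among the markers with 0 counts in every DRG library. At the same threshold, an adjusted p under 0.05 (edgeR), 27.8% of all tested genes were higher in DRG and 28.1% lower. Of 8 genes listed as peripheral glia markers 4 were higher in DRG and 4 lower. Those higher were egr2b, pmp22b, s100b and foxd3, with log2 fold changes of 4.47, 3.93, 2.68 and 1.90. Those lower were plp1a, mpz, sox10 and mbpa, with log2 fold changes of -4.01, -3.57, -2.91 and -1.95. The mean level of mpz was 31499 CPM in the cord and 2644 CPM in DRG, so the listed genes did not mark peripheral glia alone here. In mammals sox10 and mbp, for example, are also genes of the myelinating glia of the cord. Transcript lengths were not used here, so CPM values and read shares of different genes are not compared as amounts of RNA.

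Expression of kcnk18 was high in every DRG library and close to the limit of counting in every cord library. Its level was 163, 192 and 178 CPM in DRG replicates 1, 2 and 3, from 2849, 3272 and 3930 counts. In cord replicates 1, 2 and 3 it was 0.127, 0.355 and 0.128 CPM, from 5, 12 and 5 counts. The tissues did not overlap, the DRG libraries lay close together, and the highest cord value was that of replicate 2. The mean was 177 ± 14.5 CPM in DRG and 0.203 ± 0.131 CPM in the cord (SD, n = 3 each), so that the cord level was 0.115% of the DRG level. Without cord replicate 2 the cord mean was 0.128 CPM, or 0.0719% of the DRG level. The fitted log2 fold change, DRG over cord, was 9.78 ± 0.33 (SE), rank 2 of all 16112 tested genes and rank 1 of those reaching a mean of 10 CPM in either tissue. It was 10.38 without cord replicate 2. This is the value by which the gene was picked. Within pools 815, 816 and 818, each of which gave 1 DRG and 1 cord library, the log2 ratio was 10.32, 9.08 and 10.44. Wherever 3 values of a tissue are listed, below as here, they are those of replicates 1, 2 and 3 in this order.

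The spread of kcnk18 between DRG libraries was not used to choose it. Its coefficient of variation over the 3 DRG libraries was 8.15%. Across 8747 tested genes with a DRG mean of at least 10 CPM the median coefficient of variation was 17.8%, and 15.4% of those genes varied less than kcnk18. On the TMM scale the DRG libraries were thus more alike in kcnk18 than in most genes above that minimum. Still, they differed in the mitochondrial share given above. The spread was not computed with library sizes alone, and the TMM factors of the DRG libraries ran from 0.657 to 0.834. The genes above that minimum were not matched to kcnk18 for level. Counting error adds more to the spread of genes near the minimum than to that of kcnk18.

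**Figure D1:**
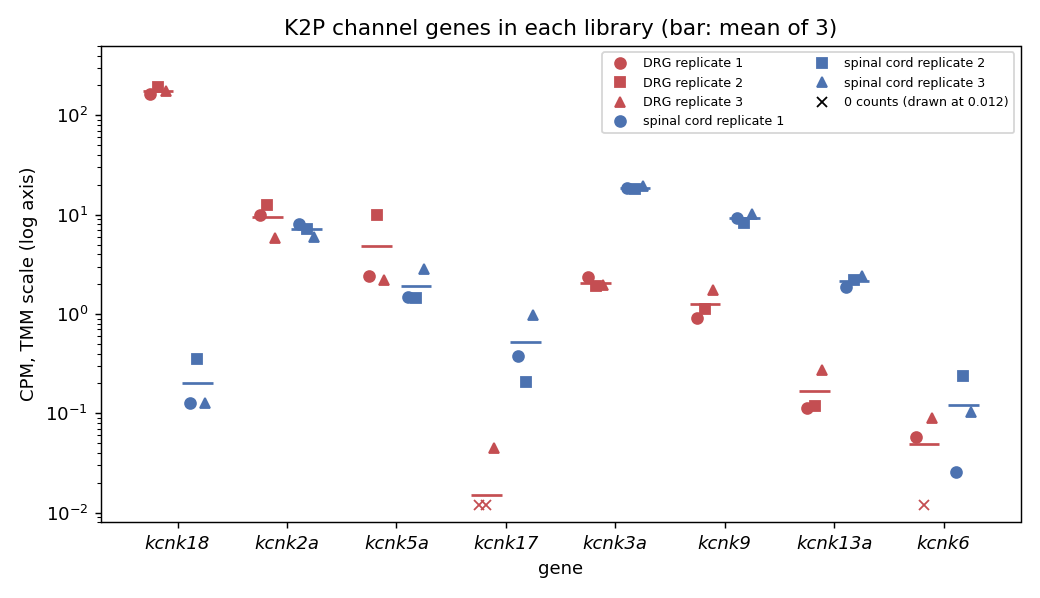
CPM on the TMM scale (log axis) of the 8 K2P genes in each library, with the mean of 3 libraries per tissue as a bar and libraries with 0 counts as crosses at the bottom. DRG libraries stand far above cord libraries for kcnk18 and below them for kcnk3a, kcnk9 and kcnk13a, and overlap them for kcnk2a and kcnk5a. Levels of kcnk6 lie near the limit of counting in both tissues, and those of kcnk17 in DRG. Heights of different genes are not corrected for transcript length.

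The reads of the family were divided differently in the 2 tissues, a measure that needs no scaling between libraries. Here and below, K2P reads are those of the 8 genes with a kcnk symbol. K2P genes without such a symbol were not looked for, so shares and sums hold for the named genes only. In DRG replicates 1, 2 and 3, kcnk18 took 91.2%, 88.2% and 93.6% of all K2P reads (95% Wilson intervals 90.2% to 92.1%, 87.2% to 89.2% and 92.8% to 94.3%). In cord replicates 1, 2 and 3 it took 0.321%, 0.930% and 0.305% (intervals 0.137% to 0.750%, 0.533% to 1.62% and 0.130% to 0.713%). These intervals cover counting error only. The kcnk18 shares use the tissue difference by which the gene was picked, so they too are a description. Summed over all 8 genes, K2P reads came to 195 ± 19.9 CPM in DRG and 39.9 ± 1.89 CPM in the cord (SD, n = 3 each), a description that follows from kcnk18.

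Without kcnk18 the order was the opposite. The other 7 genes summed to 15.7, 25.6 and 12.2 CPM in DRG and to 39.5, 37.8 and 41.8 CPM in the cord. Every cord library was above every DRG library, with means of 17.8 ± 6.92 CPM in DRG and 39.7 ± 1.99 CPM in the cord (SD, n = 3 each; log2 ratio -1.16; exact permutation test, two-sided, p = 0.1, which is the lowest value that 3 and 3 libraries allow). Libraries were permuted without regard to their pairing by pool, and swaps within 3 pools cannot reach a p this low. Of the 7 genes, 5 had enough counts for the test across all genes. Of the 5, kcnk3a, kcnk9 and kcnk13a were lower in DRG at an adjusted p under 0.05 (edgeR's quasi-likelihood test, Benjamini-Hochberg adjusted over all tested genes), 0 were higher, and kcnk2a and kcnk5a did not pass. Across all tested genes 55.9% passed in either direction, 27.8% higher and 28.1% lower in DRG, and the median log2 fold change was -0.04 against -2.85 for the 5. The libraries of the tissues did not overlap for 3 of the 5, all lower in DRG, and for 65% of all tested genes, of which those lower in DRG make up 34.1% of tested genes.

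The TASK genes kcnk3a and kcnk9 encode the acid-inhibited channels TASK-1 and TASK-3, which in rodents are known from motor neurons and are opened by volatile anaesthetics. The level of kcnk3a was 2.34, 1.93 and 1.94 CPM in DRG and 18.4, 18.3 and 19.4 CPM in the cord. The libraries of each tissue lay close together and far from those of the other, with a log2 fold change of -3.17 ± 0.20 (SE; 8.99-fold lower in DRG; adjusted p = 1.14e-05, edgeR). The level of kcnk9 was 0.915, 1.11 and 1.76 CPM in DRG and 9.26, 8.23 and 10.1 CPM in the cord. Again no library overlapped, and kcnk9 was 7.21-fold lower in DRG (log2 fold change -2.85 ± 0.32 SE, adjusted p = 0.000175, edgeR). Both genes were lower in DRG in all 3 pools, and both passed under all 15 alternative processings. The spinal neuron markers given above, motor neuron genes among them, fell in DRG with these genes; their part in the result was not tested.

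The THIK gene kcnk13a encodes a halothane-inhibited channel that is best known in mice as the resting potassium channel of microglia. It had 2, 2 and 6 counts in DRG and 74, 74 and 94 counts in the cord, or 0.114, 0.117 and 0.271 CPM against 1.88, 2.19 and 2.41 CPM. DRG replicates 1 and 2 were under the level of 3 counts. The log2 fold change was -3.62 ± 0.52 (SE, adjusted p = 0.000593, edgeR), and the ratio of summed counts, cord over DRG, was 12.2 with an exact 95% interval for counting error of 6.54 to 25.8. Among the blood and immune markers, spi1b, a transcription factor of microglia and other myeloid cells, stood at 0.512 ± 0.194 CPM in DRG and 1.23 ± 0.191 CPM in the cord, while ptprc, a surface phosphatase of all white blood cells, stood at 30.7 ± 31.4 and 7.40 ± 1.73 CPM (SD, n = 3 each). The DRG mean of ptprc was 12.6 CPM without replicate 2. The part of such cells in the kcnk13a difference was not tested.

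The TREK gene kcnk2a encodes TREK-1, a channel opened by stretch, heat and polyunsaturated fatty acids that in mice is found in many sensory neurons. Its level was 9.89, 12.4 and 5.88 CPM in DRG and 8.12, 7.25 and 5.96 CPM in the cord. The tissues overlapped, with DRG replicate 3 below every cord library and DRG replicates 1 and 2 above them. The log2 fold change was 0.40 ± 0.30 (SE; 95% interval -0.29 to 1.09; adjusted p = 0.287, edgeR). With library sizes alone it was -0.59 (adjusted p = 0.0732, edgeR), by the shift common to all genes: against the median of all tested genes it was 0.44 with TMM and 0.40 with library sizes alone. The gene passed the threshold only in the fit without DRG replicate 3, where its log2 fold change was 0.64 (adjusted p = 0.0453, edgeR).

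The TALK genes are opened by alkaline extracellular fluid. The level of kcnk5a, which encodes the channel TASK-2 of kidney tubules and of chemosensitive hindbrain neurons in mice, was 2.40, 9.97 and 2.21 CPM in DRG. In cord replicates 1, 2 and 3 it was 1.48, 1.45 and 2.82 CPM. DRG replicate 2 stood above all other libraries, and cord replicate 3 was above DRG replicates 1 and 3. The log2 fold change of 1.34 ± 0.64 (SE; 95% interval -0.13 to 2.81; adjusted p = 0.108, edgeR) did not pass and was 0.26 without DRG replicate 2 (adjusted p = 0.643, edgeR). The other TALK gene, kcnk17, known in humans from the pancreas, had 0, 0 and 1 counts in DRG and 15, 7 and 38 counts in the cord. It had too few counts for the test; the ratio of summed counts, cord over DRG, was 30.3 with an exact 95% interval for counting error of 5.24 to 1217. Without a filter on low counts its adjusted p was 0.0113 (edgeR). The gene was tested in 5 of the 15 alternative processings, that one among them, and was lower in DRG past the threshold in each. Its highest adjusted p was 0.0361 (edgeR), without DRG replicate 1. The TWIK gene kcnk6, whose mammalian product is found in endosomes and lysosomes, had 1, 0 and 2 counts in DRG and 1, 8 and 4 counts in the cord, and no difference was detectable at this depth.

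Markers of other cell types also varied between the DRG libraries. Their counts of higher and lower genes stand beside 27.8% higher and 28.1% lower among all tested genes. The 5 matched connective tissue genes, of which 4 were higher in DRG and 1 lower, summed to 2353, 3464 and 1419 CPM in DRG and to 121 to 156 CPM in the cord. The 4 matched blood genes, of which 3 were higher in DRG and 1 lower (2 higher and 0 lower with pool as a block), summed to 127, 149 and 72.1 CPM in the same DRG libraries and to 19.3 to 21.2 CPM in the cord. The 4 muscle genes, 2 of them tested and 1 higher in DRG (0 with library sizes alone), summed to 19.8, 41.4 and 12.6 CPM in DRG and to 8.50 to 13.0 CPM in the cord, with myod1 at 0 in the cord. Each of the 5 connective tissue and 4 muscle genes was highest in replicate 2 among the DRG libraries, as kcnk2a and kcnk5a were. This peak was not particular to those cell types. The glial genes mpz and s100b and the nociceptor genes calca and tac1 were also highest in DRG replicate 2, whereas ret and tafa4b were lowest there. Of the blood genes, ptprc was at 11.7, 67.0 and 13.5 CPM in DRG, whereas rhag, a membrane protein of red blood cells, was highest in replicate 1, at 77.3, 45.9 and 35.3 CPM, as was lmo2, a transcription cofactor of blood precursors, at 37.6, 35.3 and 23.1 CPM. The 5 endothelial genes summed to 63.5, 53.4 and 39.3 CPM in DRG and to 93.8 to 122 CPM in the cord. Of these, kdr was at 46.3, 24.4 and 30.9 CPM in DRG, and flt1 was also highest in DRG replicate 1. The endothelial genes tek, tie1 and cldn5a were highest in replicate 2 among the DRG libraries. Whether these cells contributed to the kcnk2a and kcnk5a levels was not tested.

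**Figure D2:**
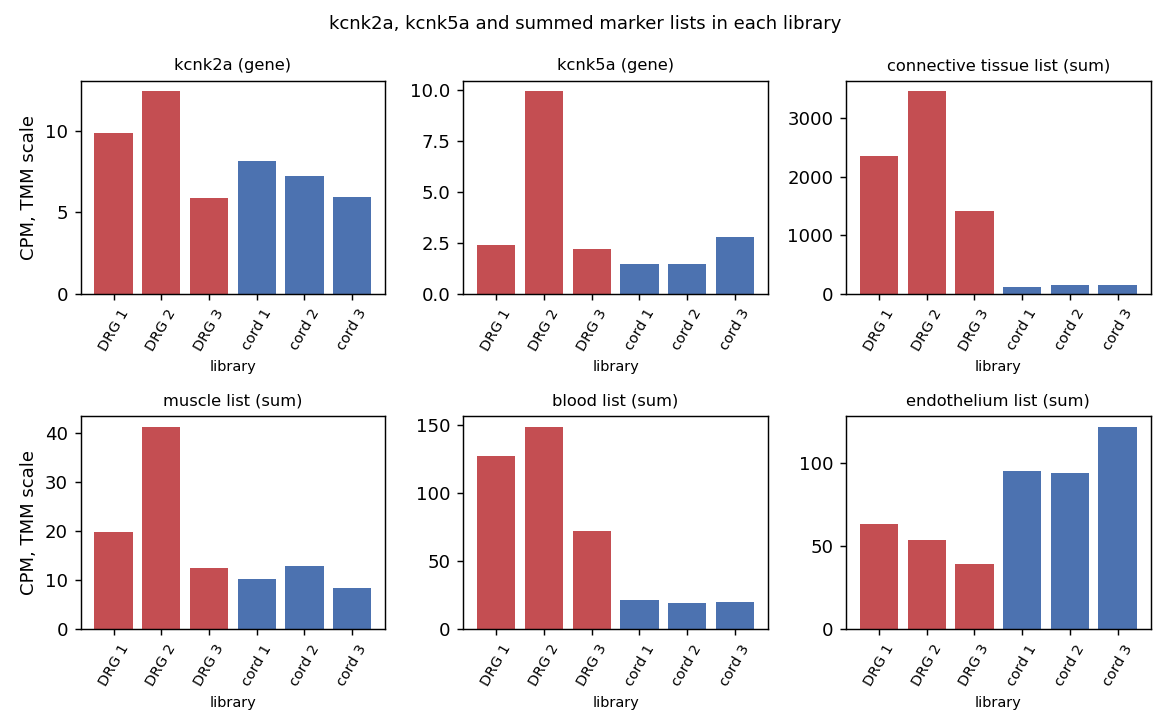
CPM on the TMM scale of kcnk2a and kcnk5a and summed CPM of the connective tissue, muscle, blood and endothelium marker lists in the 3 DRG (red) and 3 spinal cord (blue) libraries, each panel on its own axis from 0. DRG replicate 2 is the highest DRG library in every panel but that of endothelium, where replicate 1 is. In the blood sum it is so through ptprc, while rhag and lmo2 are highest in replicate 1. In the endothelium sum replicate 1 leads through kdr, while tek, tie1 and cldn5a are highest in replicate 2. Glial and nociceptor genes that also peak in DRG replicate 2 are not drawn.

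Among the 7 genes other than kcnk18, the gene with the leading share differed between the tissues. The share of kcnk2a was 62.9%, 48.6% and 48.1% in DRG and 20.6%, 19.2% and 14.3% in the cord. The share of kcnk5a was 15.3%, 39.0% and 18.1% in DRG and 3.74%, 3.83% and 6.74% in the cord. For kcnk3a it was 14.9%, 7.57% and 15.9% in DRG and 46.5%, 48.3% and 46.4% in the cord. The leading share was therefore that of kcnk2a in every DRG library and that of kcnk3a in every cord library. The tissues did not overlap for 6 of the 7 shares, all but that of kcnk6. Those of kcnk17 and kcnk13a rested on few DRG reads, with 0, 0 and 1 counts and 2, 2 and 6 counts. Each of the 6 had a two-sided exact permutation p of 0.1, the smallest possible here when the pairing by pool is ignored. Adjusted over the 7 shares by Benjamini-Hochberg, this permutation p was 0.117. Shares of one library sum to a fixed total, so they do not vary independently. The CPM levels of kcnk2a and kcnk5a overlapped between the tissues, while the sum they are divided by was lower in every DRG library. In CPM the libraries of the tissues did not overlap for 65% of all tested genes, and no such background was computed for shares.

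**Figure D3:**
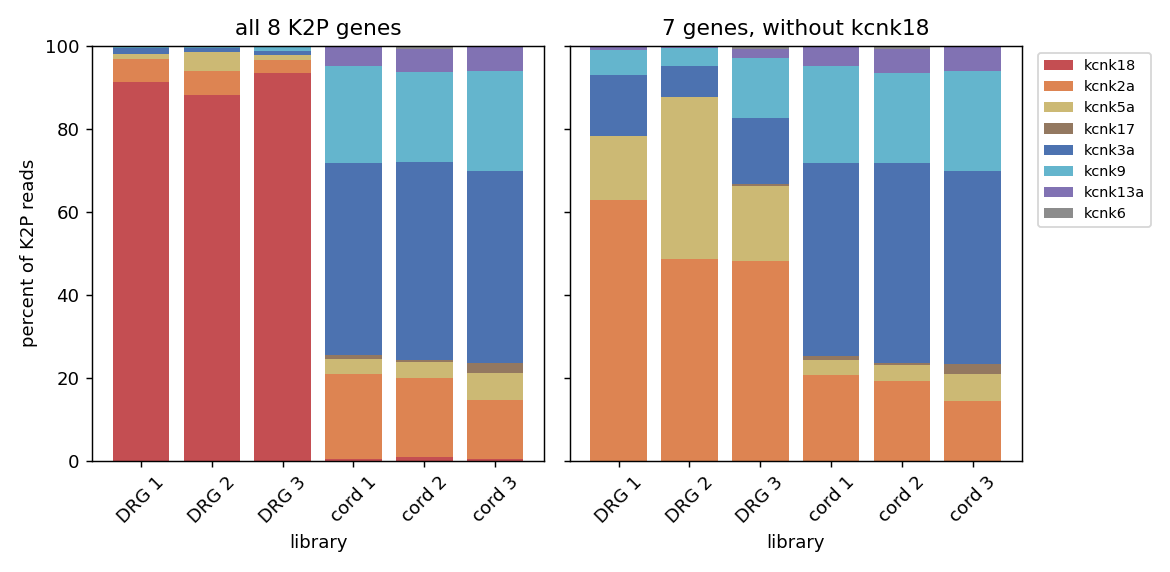
Percent of K2P reads that each gene took in the 3 DRG and 3 cord libraries, over all 8 genes (left) and over the 7 genes other than kcnk18 (right). Reads of kcnk18 fill 88.2% to 93.6% of the DRG bars on the left, and on the right kcnk2a leads in each DRG library and kcnk3a in each cord library.

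**Figure D4:**
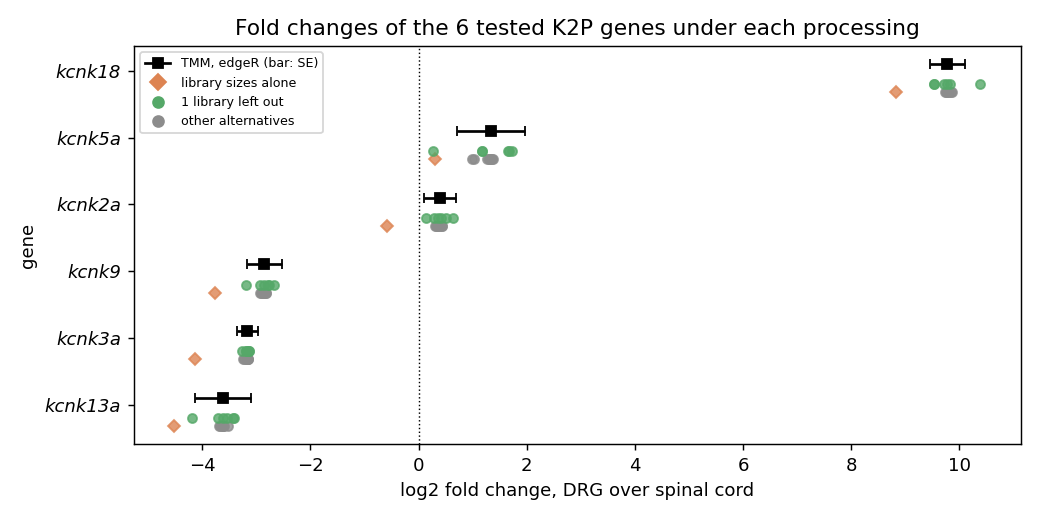
Log2 fold change, DRG over cord, of the 6 tested K2P genes, with the TMM and edgeR value and its SE as a square and the value under each alternative processing below it. The orange diamonds, library sizes alone, lie lowest for each gene but kcnk5a, and kcnk2a crosses 0 there, from 0.40 to -0.59.

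Proteins known in mammals to act on K2P channels were followed as a list: calcineurin subunits and their inhibitors, 14-3-3 proteins, MARK kinases and protein kinases A and C, all with effects on TRESK or its relatives, and trafficking partners. Of 30 symbols 6 matched a row and all 6 were tested, with none of the calcineurin or 14-3-3 symbols among them. Of the 6, 2 were higher in DRG and 1 lower, or 50% against 55.9% of all tested genes, with a median log2 fold change of 0.31 against -0.04. With library sizes alone 0 were higher and 4 lower. In that setting 10882 of all 16112 tested genes passed, and 15.5% of these were higher in DRG. The level of mark1, whose kinase family phosphorylates TRESK, was 69.4, 64.6 and 91.5 CPM in DRG and 43.5, 47.4 and 47.0 CPM in the cord; its log2 fold change of 0.71 ± 0.16 (SE, adjusted p = 0.00624, edgeR) was -0.22 with library sizes alone, and 0.75 and 0.77 when set against the median of all tested genes under each scaling. For stx8, a syntaxin that in mammals helps to take TASK-1 up into endosomes, the levels were 28.8, 29.4 and 20.8 CPM in DRG. In the cord they were 11.7, 9.77 and 12.5 CPM (log2 fold change 1.22 ± 0.19 SE, adjusted p = 0.00092, edgeR). With library sizes alone the log2 fold change of stx8 was 0.24 (adjusted p = 0.279, edgeR). Against the median of all tested genes it was 1.25 with TMM and 1.23 with library sizes alone. The levels of rcan2, a calcineurin inhibitor, were 23.2, 30.0 and 30.2 CPM in DRG and 42.3, 41.8 and 42.0 CPM in the cord, which put the DRG below the cord (adjusted p = 0.00868, edgeR; log2 fold change -0.60 ± 0.15 SE). The share of this list past the threshold was near that of all genes.

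Genes of nociceptors, itch neurons and C low-threshold mechanoreceptors, the mammalian sensory neuron classes in which Kcnk18 is best known, formed a further list. Of 30 symbols 11 matched and 9 were tested; 5 were higher in DRG and 2 lower, or 77.8% against 55.9% of all tested genes, with a median log2 fold change of 1.59 against -0.04. The 11 genes summed to 918 to 1046 CPM in DRG and 143 to 157 CPM in the cord. The genes called higher were ret, calca, tafa4b, tac1 and runx1. Their log2 fold changes ran from 4.01 for ret, the receptor of GDNF ligands, to 1.59 for runx1, a transcription factor. With library sizes alone runx1 was no longer past the threshold (0.64, adjusted p = 0.137, edgeR), by the shift common to all genes. Against the median of all tested genes runx1 was at 1.63 under each scaling. Those called lower were gfra2b (-2.12), a GDNF family co-receptor, and oprm1 (-1.95), the mu opioid receptor. In mice tafa4 (a secreted protein), th (tyrosine hydroxylase) and slc17a8 (a vesicular glutamate transporter) together mark C low-threshold mechanoreceptors. The level of tafa4b was 59.4, 47.0 and 57.3 CPM in DRG and 8.45, 7.40 and 7.73 CPM in the cord (log2 fold change 2.79 ± 0.15 SE, adjusted p = 6.67e-06, edgeR). For th the libraries overlapped, at 5.89, 2.58 and 4.97 CPM in DRG and 4.23, 5.83 and 2.69 CPM in the cord (adjusted p = 0.882, edgeR). There were 0, 0 and 2 counts of slc17a8 in DRG and 8, 17 and 8 in the cord. The nociceptor determinant prdm12b had 0, 1 and 6 counts in DRG and 3, 4 and 12 in the cord. These last 2 genes had too few counts for the test. For htr1d the libraries overlapped, at 4.29, 1.93 and 8.36 CPM in DRG and 6.11, 6.45 and 5.89 CPM in the cord. Its log2 fold change was -0.33 (adjusted p = 0.570, edgeR). With th, htr1d and the 2 genes called lower, the members of the list were not all high where kcnk18 was high.

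The genes whose profile over the 6 libraries was most like that of kcnk18 were found by the root mean square difference in log2 CPM after centring each gene on its own mean. Of the closest 5 genes, 1 has a symbol: entpd3, which encodes an enzyme that breaks down extracellular ATP, at a difference of 0.578. Its level was 278, 255 and 312 CPM in DRG and 0.331, 1.18 and 0.819 CPM in the cord. LOC129697339 was closest at 0.497, with 240.5, 258 and 232 CPM in DRG and 0.356, 1.27 and 0.461 CPM in the cord. LOC129698995 was at 0.660, and the remaining 2, likewise without a symbol, were at 0.703 and 0.713. The likeness is a description. The tissue difference that picked kcnk18 enters it, and so does each single library, so that the high cord replicate 2 that all 5 share with kcnk18 follows in part from the choice. The same 5 genes were found with library sizes alone and with a prior count of 0.5 in place of 2.

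**Figure D5:**
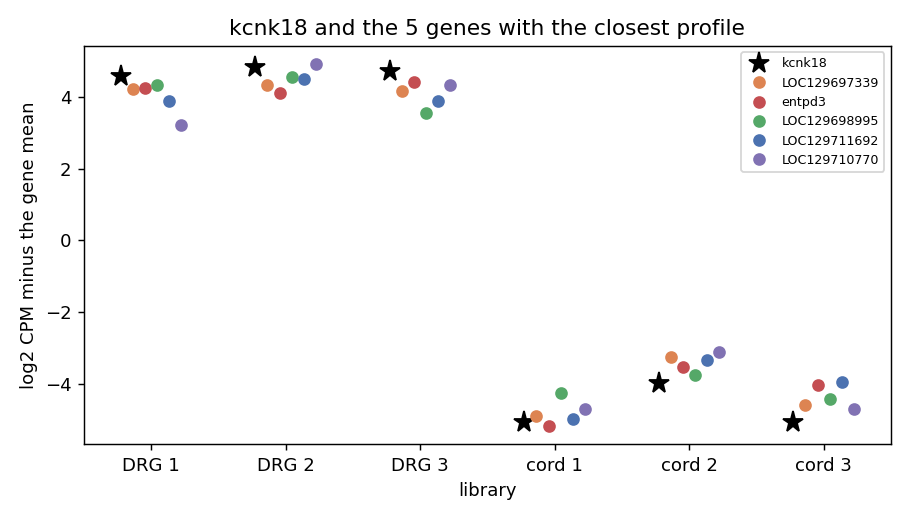
Log2 CPM minus each gene's mean over 6 libraries for kcnk18 (star) and the 5 genes with the smallest root mean square difference from it (circles), by library. All 6 genes are high in the 3 DRG libraries and low in the 3 cord libraries.

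Position in the genome was not used to choose the genes. In the RefSeq list of genes for assembly Leri_hhj_1, where all 8 K2P genes are named, kcnk18 lies between atp6v1ba and vax1 on one side and slc18a2 and pdzd8 on the other; these flanking genes were looked up after earlier results were known. The homeobox gene vax1, next to it, had 0, 0 and 3 counts in DRG and 0 counts in each cord library. The level of slc18a2, the vesicular monoamine transporter and the other direct neighbour, was 0.114, 0.410 and 0.588 CPM in DRG and 2.52, 5.36 and 3.46 CPM in the cord. It was lower in DRG in every pool (log2 fold change -3.31 ± 0.59 SE, adjusted p = 0.00192, edgeR), the opposite direction to kcnk18. One gene further out, atp6v1ba, a proton pump subunit, was at 16.6 ± 4.13 CPM in DRG. Its cord level was 7.41 ± 0.620 CPM (SD over 3 libraries for both tissues). The log2 fold change of atp6v1ba was 1.17 (adjusted p = 0.00291, edgeR), and 0.24 with library sizes alone (adjusted p = 0.476, edgeR). Against the median of all tested genes it was 1.20 with TMM and 1.23 with library sizes alone. For pdzd8, an endoplasmic reticulum tether protein, the log2 fold change was -0.19 (adjusted p = 0.237, edgeR). With library sizes alone it was -1.14 (adjusted p = 0.00076, edgeR), where the median of all tested genes was -0.99. In the same table kcnk17 and kcnk5a lie on one chromosome with 7 genes between them; kcnk17 reads were nearly all from the cord, whereas kcnk5a was found in both tissues.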

How the data were processed

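Unnormalised read counts for each gene, in whole numbers, were deposited by the authors as 1 table covering 6 libraries. The submitters' processing notes name Trimmomatic, HISAT2 2.2.0, SAMtools, featureCounts and edgeR 4.4; per the labels' protocols libraries were stranded and polyA-selected. The genome build, annotation and strand setting of the counting are not given in the sources used here, so no coordinates are printed, and counts of near-identical paralogs or overlapping genes are uncertain. The 24 rows that name no gene (1.02% to 2.04% of counts per library) were kept out. Genes were filtered with filterByExpr, scaled with TMM and tested with edgeR 4.0.16 in R 4.3.3 (quasi-likelihood F test, glmQLFTest, of tissue with no other term; the threshold was a Benjamini-Hochberg adjusted p of 0.05); SE is the log2 fold change divided by the square root of F. Replicate pairs differed by more than counting noise (chi-square per gene at least 20.4). The labels give pool numbers to both tissues and list them as batches, so the numbers pair the libraries; deviations from tissue means correlated at 0.48, -0.24 and -0.18 across genes in pools 815, 816 and 818. Each pool is a separate sample of embryos. The edgeR p-values rest on the spread between pools, which is estimated for each gene with information shared across the tested genes.

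Symbols of lists were matched plain or with the suffix a or b. Of the marker lists, 6 of 7 progenitor and central glia genes were lower in DRG (7 with library sizes alone). Of 5 endothelial genes 1 was higher and 2 lower (1 lower with the block, 4 with library sizes alone). Among all tested genes 27.8% were higher and 28.1% lower. Named were all kcnk genes, the 5 most alike to kcnk18, and the 4 largest changes in each direction of both lists with preset genes where present. Also named were genes chosen after their values were seen (th, slc17a8, prdm12b, htr1d and the neighbours of kcnk18). Members and lists were chosen with earlier results of these data known. Other processings used DESeq2 1.42.0 and limma 3.58.1. The fit was also run on simulated counts, in which few genes changed and neither composition nor pools differed. That run cannot tell how the fit performs under the differences in composition seen here.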

Additional observations from a re-analysis of the deposited data

How the results depend on the processing

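The number of K2P genes other than kcnk18 past the threshold was 3. It was 4 without a filter on low counts, where kcnk17 was added, 2 with at least 10 counts in every library, which kcnk13a and kcnk18 did not reach, and 3 to 5 in fits that left out 1 library. It was 5 without DRG replicate 3, with kcnk2a and kcnk17 added. The kcnk18 log2 fold change of 9.78 was 8.83 with library sizes alone and 9.53 to 10.38 with 1 library left out, the highest without cord replicate 2. With library sizes alone that of kcnk2a was -0.59 in place of 0.40, by the shift common to all genes. With DESeq2's test 5 regulator genes passed in place of 3, while 9612 of all genes passed in place of 9002. The replicate block (pool as a term) changed no call of a tested K2P gene: the adjusted p was 0.231 for kcnk5a and 0.288 for kcnk2a, and 3 K2P genes passed. The number of all genes past the threshold was 9002, and 8425 with the replicate block. No other K2P gene changed direction or side of the threshold under an alternative that tested it. Adding K2P genes without a kcnk symbol was not run, since the gene table gives no descriptions. Depth limits kcnk6 and kcnk17, and kcnk13a in DRG.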
